A study of Homo sapiens with 4 samples.

Results

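The proteasome is described here through 42 genes of its subunits, activators, inhibitor and assembly chaperones, out of 19775 genes measured in AGS, a line established from a human adenocarcinoma of the stomach. Membership was set by symbol: PSM, then a letter from A to G, then a number, on probe sets that the platform annotation maps to a single gene. The proteasome genes were chosen with earlier results of these data known. They were carried by 81 of 41091 such probe sets. Each gene was represented by its brightest probe set (highest mean log2 value), and for PSMF1 every probe set was read. Of the human genes with such a symbol, PSMA6 and PSME2 had only probe sets that also carry another gene's symbol, and PSMB11, PSMC5, PSMD7 and PSMD13 had none in the annotation used. Those 6 genes were not analysed here.

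The 4 arrays were compared. A pair came from untreated AGS cells, given fresh medium, and a pair from AGS cells given medium with 10 µg/ml lipopolysaccharide (LPS) of Helicobacter pylori, both harvested after 8 h. LPS is the outer-membrane glycolipid of the bacterium, here without live bacteria. The series' text speaks of 2 independent experiments, and the cells carried no genetic alteration named in the labels.

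The 26S proteasome is the barrel-shaped protease that degrades ubiquitin-tagged proteins in every human cell. Its core is a stack of outer alpha and inner beta rings, and the catalytic sites sit on 3 of the beta subunits. A regulatory cap with a ring of ATPases recognises, unfolds and feeds the substrate into the core. Interferons and some inflammatory signals replace the 3 catalytic subunits by PSMB8, PSMB9 and PSMB10, giving the immunoproteasome, which favours peptides that MHC class I molecules can present.

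None of the 42 proteasome genes was called higher or lower with LPS (limma, adjusted p = 1 for each, against 0% of all genes in either direction). At an unadjusted p under 0.05, 1 member was lower, where 1.57% of all genes were, and 0 members were higher, where 1.26% were. The treated arrays both lay above the untreated arrays for 7 members and both below for 4, that is 16.7% and 9.52% of them, against 17.9% and 11.7% of all genes. The median difference between LPS and untreated arrays was 0.01 on the log2 scale, with 24 members above 0, and 0.02 over all genes. The median size of a member's difference, whatever its sign, was 0.036, against 0.078 over all genes and 0.078 over the genes at or above median expression. The median standard error was smaller too, at 0.093 for the members and 0.116 for the genes at or above median expression. Those genes were not matched to the members for brightness, and the part of brightness in the smaller size was not tested. Between the untreated arrays members differed by a median of 0.08 and between the treated arrays by 0.09, both larger than the typical difference between the groups. A difference between single arrays also varies more than a difference between means of 2. The median 95% interval reached 0.22 to either side of the estimate, or 1.16-fold.

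**Figure D1:**
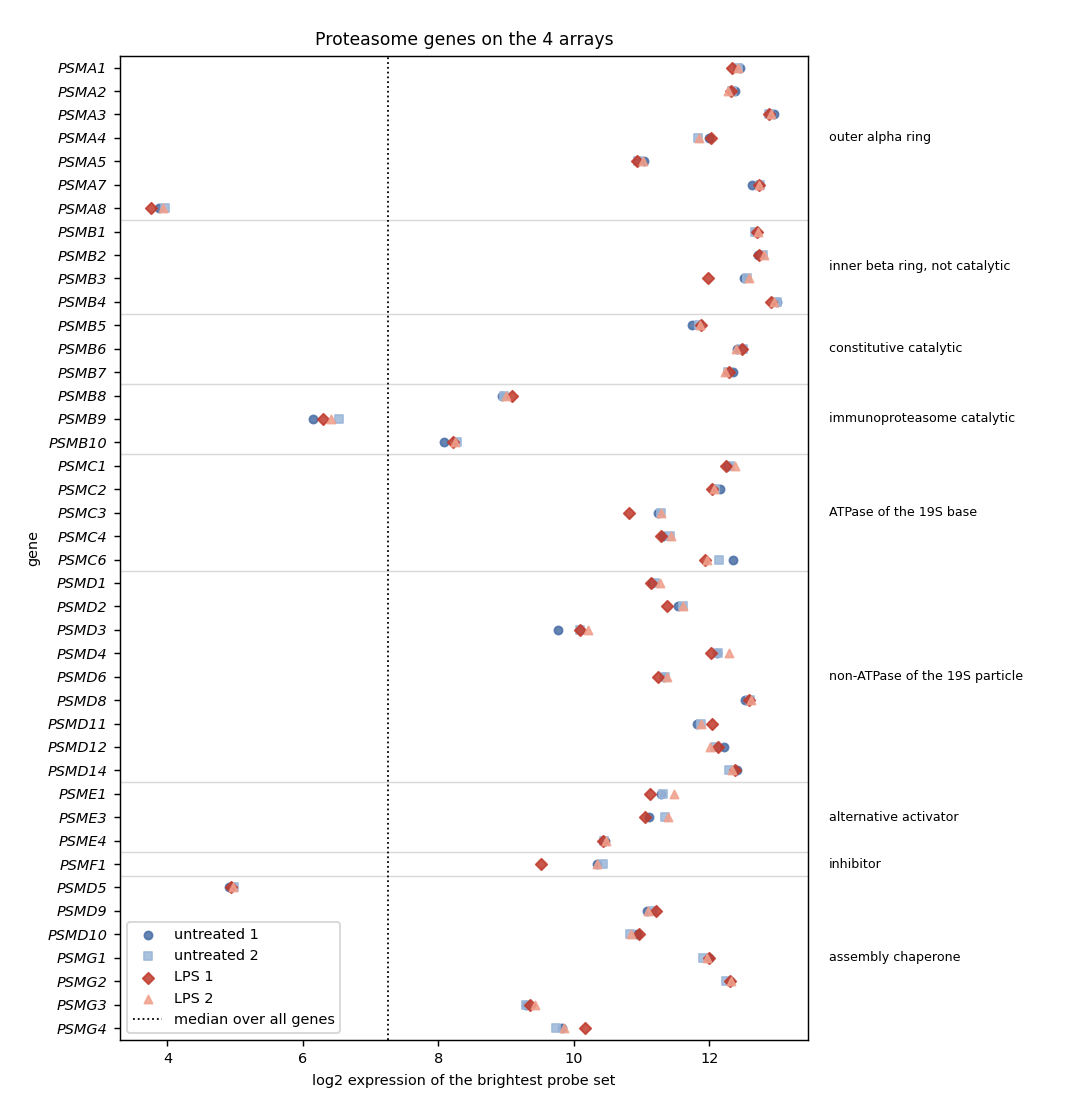
Log2 expression of the 42 proteasome genes (rows, grouped by role) on the 2 untreated and 2 LPS arrays (points), with the median over all genes as a dotted line at 7.25. Points of a gene lie close together for most genes, and PSMF1, PSMB3 and PSMC3 have LPS replicate 1 to the left of the other arrays; the place of one gene against another also reflects its probe set and is not compared.

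**Figure D2:**
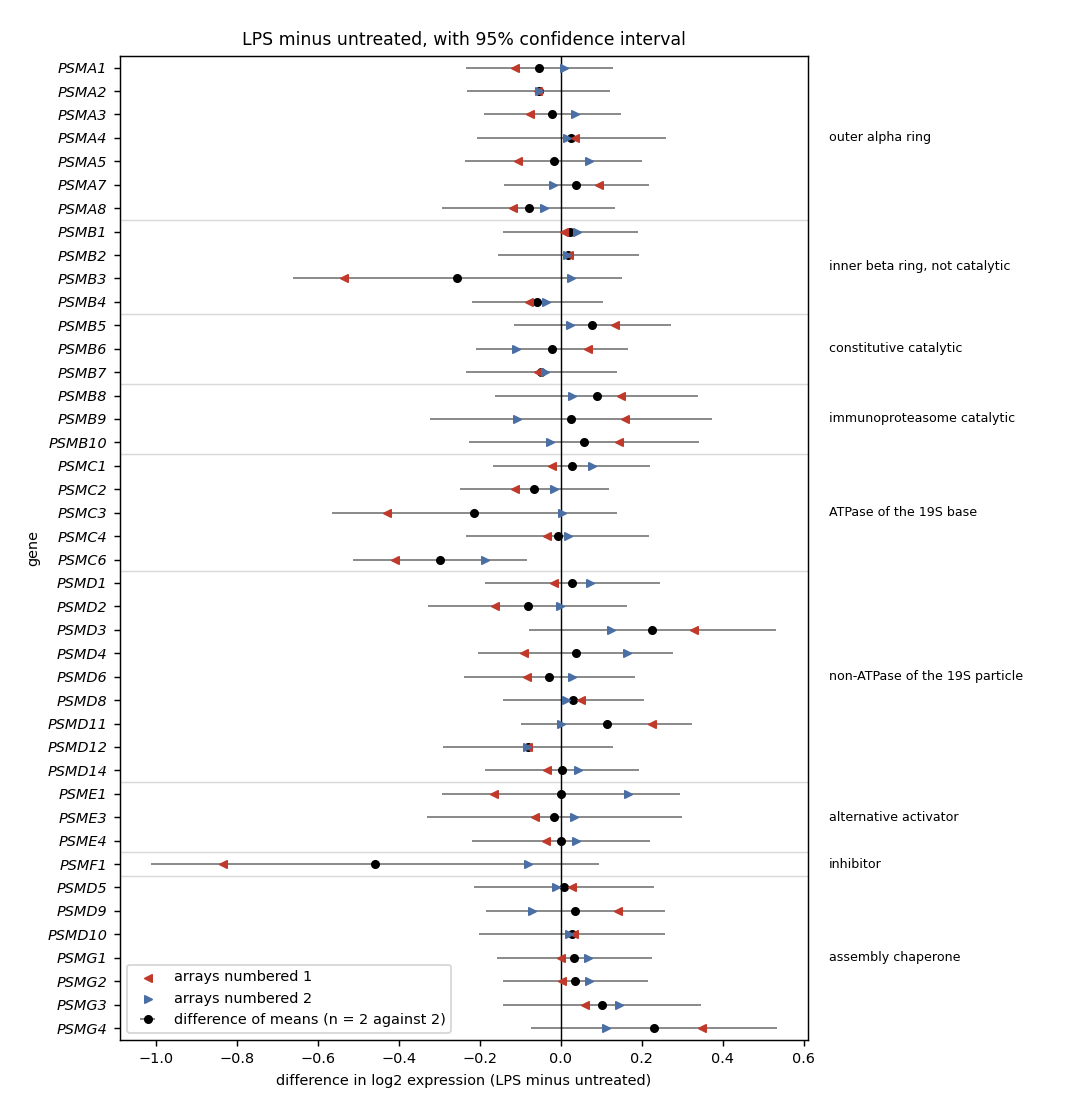
Difference in log2 expression (LPS minus untreated) of each proteasome gene, with its 95% interval from the fit over all genes (bars) and the same difference within each pair of arrays of one number (triangles). The interval of PSMC6 alone leaves out 0, before adjustment over all genes.

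PSMB8, PSMB9 and PSMB10, the catalytic subunits of the immunoproteasome, were measured by 1 probe set each. PSMB8 takes the place of PSMB5, the subunit with chymotrypsin-like activity. Its log2 expression was 8.933 and 8.976 in untreated cells and 9.080 and 9.004 in LPS-treated cells. Both treated arrays were above both untreated arrays, by 0.03 at the nearest, and in a culture measured in bulk, more transcript per cell and more cells carrying it cannot be told apart. The ratio of treated to untreated was 1.06, with a 95% interval of 0.89 to 1.27 (limma, unadjusted p = 0.44, adjusted p = 1).

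PSMB9 takes the place of PSMB6, which has caspase-like activity. It stood at 6.15 and 6.53 in untreated cells and at 6.30 and 6.42 in treated cells, so that both treated arrays lay between the untreated ones. The ratio was 1.02 (interval 0.80 to 1.30, limma, adjusted p = 1). PSMB9 was below the median over genes of 7.25, and no detection call was used to tell its signal from background.

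PSMB10 takes the place of PSMB7, which has trypsin-like activity. Its values were 8.08 and 8.28 in untreated and 8.22 and 8.25 in treated cells, again with the treated arrays between the untreated ones. The ratio was 1.04 (interval 0.85 to 1.27, limma, adjusted p = 1). For all 3 genes the estimate was above 0, at 0.09, 0.02 and 0.06 on the log2 scale, while the untreated arrays alone differed by 0.04, 0.38 and 0.20. Between the arrays numbered 1 the 3 genes were higher with LPS by 0.15, 0.16 and 0.14, and between those numbered 2 they differed by 0.03, -0.11 and -0.03.

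The constitutive partners were as close between the groups. PSMB5 stood at 11.75 and 11.85 in untreated and 11.88 and 11.87 in treated cells, a difference of 0.08 ± 0.08 (SE) without overlap of the arrays. PSMB6 stood at 12.41 and 12.50, then 12.48 and 12.39, a difference of -0.02 ± 0.08. PSMB7 stood at 12.35 and 12.27, then 12.30 and 12.23, a difference of -0.05 ± 0.08. None passed the adjusted test, and the levels of different probe sets cannot be read as amounts of subunit, so no immunoproteasome subunit is ranked against its partner by level.

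What can be compared between arrays is the difference of a partner pair within each array. Between treated and untreated cells it differed by 0.01 for PSMB8 minus PSMB5, by 0.05 for PSMB9 minus PSMB6 and by 0.11 for PSMB10 minus PSMB7, on the log2 scale. The spread of the same quantity between replicates (pooled SD over the groups) was 0.04, 0.18 and 0.15, larger in each pair. The exact two-sided permutation p was 0.667 for each of the 3 pairs (0.667 after Benjamini-Hochberg adjustment), and 2 arrays against 2 cannot give less than 0.333. The arrays numbered 2 gave differences of 0.01, 0.00 and 0.01, and those numbered 1 gave 0.01, 0.09 and 0.20.

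**Figure D3:**
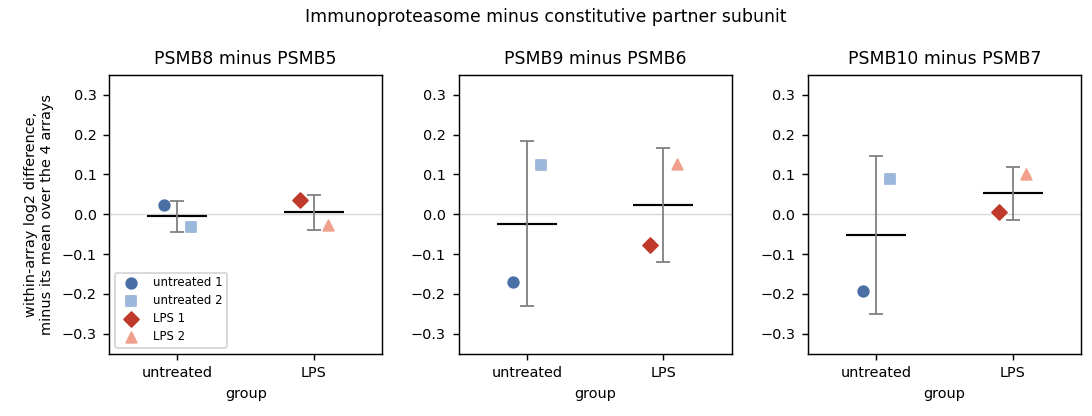
Log2 expression of each immunoproteasome subunit minus that of its constitutive partner on the same array (points), less the mean of that quantity over the 4 arrays, with the group mean (line) and SD (bar, n = 2). The 3 panels share a scale from -0.35 to 0.35, and in each panel the groups overlap.

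Interferons act on these genes through promoter elements, which is why their promoters are shown: GAS (TTCNNNGAA) and the ISRE core (GAAA, any 2 bases, then GAAA), the latter bound by interferon regulatory factors. The sequences are the 200 bases before an annotated start in RefSeq on GRCh38.p14, read 5′ to 3′ on the gene's strand, with every match to either element on either strand in capitals. They lie at chr6:32844048-32844247 (minus strand) for PSMB8, chr6:32853992-32854191 (plus strand) for PSMB9, chr16:67936851-67937050 (minus strand) for PSMB10 and chr14:23034901-23035100 (minus strand) for the constitutive PSMB5.
PSMB8: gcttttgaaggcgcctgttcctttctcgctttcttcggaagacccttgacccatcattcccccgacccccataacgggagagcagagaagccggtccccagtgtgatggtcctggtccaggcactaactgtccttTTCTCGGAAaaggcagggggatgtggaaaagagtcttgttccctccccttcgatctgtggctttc
PSMB9: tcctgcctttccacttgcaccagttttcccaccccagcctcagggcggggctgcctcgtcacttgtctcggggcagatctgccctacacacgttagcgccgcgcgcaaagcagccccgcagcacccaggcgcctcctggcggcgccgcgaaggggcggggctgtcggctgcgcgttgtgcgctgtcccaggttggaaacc
PSMB10: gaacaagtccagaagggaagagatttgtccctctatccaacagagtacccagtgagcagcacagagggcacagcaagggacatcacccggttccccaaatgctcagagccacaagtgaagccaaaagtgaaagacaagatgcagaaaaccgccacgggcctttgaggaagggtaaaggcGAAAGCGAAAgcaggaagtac
PSMB5: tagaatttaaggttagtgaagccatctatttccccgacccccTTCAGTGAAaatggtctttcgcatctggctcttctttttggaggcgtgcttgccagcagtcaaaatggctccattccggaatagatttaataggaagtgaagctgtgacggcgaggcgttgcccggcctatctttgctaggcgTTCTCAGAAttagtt

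PSMB8 has a GAS match that begins 65 bases before the start shown, PSMB10 an ISRE match at 21 bases, and PSMB5 GAS matches at 158 and 15 bases. PSMB9 has neither in this window, nor do the 200 bases before the other listed start of PSMB8 or of PSMB5. Within 250 bases before the start, GAS is in 6.57% and the ISRE core in 3.02% of 35116 listed promoters. Among the members, 36 genes had 43 listed promoters, of which 7 held GAS (16.3%) and 4 the ISRE core (9.3%). The antioxidant response element core (TGACNNNGC), through which NRF1, the factor that restores proteasome supply, is known to act, was in 11 of the 43 (25.6%) and in 10.9% of all. Matches are of letters only, and the shown matches do not overlap each other.

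The interferon pathway itself, from receptors to the factors that switch on the immunoproteasome, differed little between the groups. Of 15 genes listed, 13 were measured, 8 of them above 0, and the median difference was 0.03 against 0.02 over all genes. With limma 0 were called, and 0 had an unadjusted p under 0.05. IRF1, an interferon regulatory factor known to act on the promoter that PSMB9 and TAP1 share, was at 8.32 and 8.46 in untreated and 8.50 and 8.48 in treated cells, and its dimmer probe set differed by -0.09. The highest member was the kinase gene JAK1 at 0.14 ± 0.09 (SE) and the lowest IRF9, a factor of the type I interferon response, at -0.16 ± 0.16. NLRC5, the activator of MHC class I genes, differed by 0.11 ± 0.12.

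Peptide transport and loading follows the immunoproteasome in the antigen pathway, and TAP2, PSMB8, TAP1 and PSMB9 are neighbours on chromosome 6. Both genes of the peptide transporter lay slightly higher with LPS, without passing the test. TAP1 had 8.52 and 8.53 in untreated and 8.76 and 8.57 in treated cells, a difference of 0.14 ± 0.12 (SE). TAP2 differed by 0.10 ± 0.12, and its other probe sets by -0.11, 0.03 and -0.09. Over 14 measured members the median was 0.02, 7 lay above 0, and 3 had an unadjusted p under 0.05, as had 559 of all 19775 genes. Those were HLA-B at 0.36 and HLA-F at 0.32, MHC class I genes alike enough in sequence for their probes to share signal, and the peptide-trimming ERAP1 at -0.44. ERAP1 read 8.19 and 7.85 on the untreated arrays, then 7.37 and 7.78 with LPS. Its difference was -0.82 for the arrays numbered 1 and -0.07 for those numbered 2, and its other probe sets differed by -0.04, -0.09, -0.29 and 0.00. The other probe sets of HLA-B differed by 0.23 and 0.29, and those of HLA-F by 0.31 and -0.09. None of the 3 genes passed over all genes (limma, adjusted p = 1 for each). The part of shared probe signal was not tested. Both treated arrays lay above both untreated arrays for 5 of the 14 genes and below for 1, against 17.9% and 11.7% of all genes. HLA-C was among the 5, at 0.14, and its other probe sets differed by 0.20, 0.18 and 0.21, without passing the test.

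PSMC6, an ATPase of the regulatory cap, was the 1 member with an unadjusted p under 0.05. Its log2 expression was 12.35 and 12.15 in untreated cells and 11.93 and 11.96 in treated cells. Both treated arrays were below both untreated arrays. The ratio was 0.81 (95% interval 0.70 to 0.94, limma, unadjusted p = 0.013, adjusted p = 1), from a single probe set. The untreated arrays differed by 0.20, and without untreated replicate 1 the difference was -0.20 with an unadjusted p of 0.129.

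The other ATPases lay nearer to 0. PSMC1 differed by 0.03 ± 0.08 (SE), PSMC4 by -0.01 ± 0.10 and PSMC2 by -0.07 ± 0.08. PSMC2 had a lower value on both treated arrays on its brightest probe set, 12.16 and 12.09 against 12.05 and 12.07. A dim PSMC2 probe set (238020_at), chosen after its values were seen, was at 6.83 and 6.66 in untreated and 6.01 and 5.99 in treated cells. That is a difference of -0.74 ± 0.12, the largest of any proteasome probe set, while the third PSMC2 probe set differed by 0.09. With every probe set as its own test it had an unadjusted p of 0.00068 and an adjusted p of 1 (limma). Of the 81 proteasome probe sets 3 were lower and 0 higher at an unadjusted p under 0.05, against 1.49% and 1.19% of all probe sets, and 0 passed the adjusted threshold, as for all probe sets (0%). The third of those lower ones, also chosen afterwards, was a dim probe set of PSMD6 (1555884_at) at -0.27 ± 0.09, whose bright one differed by -0.03.

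PSMF1 encodes a proteasome inhibitor protein and was read on 4 probe sets. The brightest (201052_s_at) read 10.35 and 10.43 on the untreated arrays, then 9.51 for LPS replicate 1 and 10.35 for LPS replicate 2. The low value came from a single array. The difference of means was -0.46 ± 0.24 (SE), the most negative among the 42 genes, with an adjusted p of 1 (limma). Without LPS replicate 1 it was -0.04, and without LPS replicate 2 it was -0.88, each with a single treated array left.

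The other PSMF1 probe sets did not share the dip. In the order untreated 1, untreated 2, LPS 1 and LPS 2, the second (201053_s_at) was at 9.38, 9.28, 9.41 and 9.24. The third (235993_at) was at 7.85, 8.06, 7.76 and 7.99, and the dimmest (236012_at) at 6.99, 7.07, 7.07 and 6.99. They differed between the groups by -0.01, -0.08 and 0.00, each with an adjusted p of 1 (limma).

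A similar dip on LPS replicate 1 stood in 2 further members, both with 1 probe set. PSMB3, a beta-ring subunit without a catalytic site, read 12.51 and 12.56 on the untreated arrays, then 11.97 for LPS replicate 1 and 12.58 for LPS replicate 2. PSMC3, another ATPase, was at 11.24, 11.29, 10.81 and 11.29 in the same order. Their differences of -0.26 ± 0.17 and -0.21 ± 0.15 (SE) turned to 0.05 and 0.03 without LPS replicate 1. Without LPS replicate 2 they were -0.56 and -0.45, and neither passed (limma, adjusted p = 0.0762 and 0.417).

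With a margin of 0.3 on the log2 scale below all other arrays, LPS replicate 1 was low in 3 of 42 members (7.14%), and in 1.29% of all genes and 1.85% of those at or above median expression. No member was low by that margin on LPS replicate 2 or untreated replicate 2, and PSMD3 was low on untreated replicate 1. The hybridisation controls, RNA added to each array's mix, read 10.80 for LPS replicate 1 and 9.91 to 10.11 for the rest. The poly-A controls, added to the RNA before labelling, set both arrays numbered 1 apart, at 8.67 (untreated) and 8.15 (LPS) against 7.62 and 7.53. The part of these differences in the dips was not tested.

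**Figure D4:**
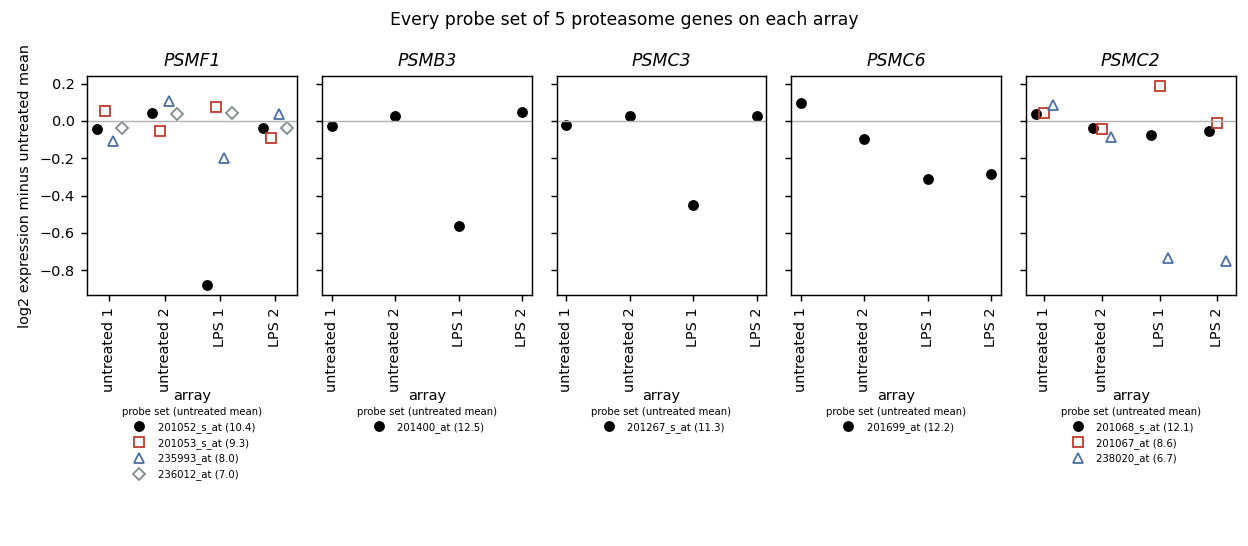
Log2 expression of every probe set of PSMF1, PSMB3, PSMC3, PSMC6 and PSMC2 on each array, less its mean over the untreated arrays. Filled points are the brightest probe set of the gene and hollow points the others. The brightest probe set of PSMF1 and the only ones of PSMB3 and PSMC3 are low on LPS replicate 1 alone. PSMC6 is lower on both treated arrays, and the low PSMC2 points belong to its dimmest probe set.

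The alpha ring forms the outer face and gate of the core. Of its 7 measured genes 2 lay above 0, the median was -0.02, and the differences ran from -0.08 to 0.04. PSMA7 was highest at 0.04 ± 0.08 (SE), with 12.64 and 12.75 in untreated and 12.73 and 12.74 in treated cells. PSMA8, the testis-restricted alpha subunit, was lowest at -0.08 ± 0.09. It was dim at 3.88, 3.97, 3.76 and 3.93 (untreated, then LPS). PSMA2 was lower on both treated arrays, at 12.37 and 12.34 against 12.32 and 12.28. Its difference of -0.06 was smaller than its SE of 0.08. Its dimmer probe set was also lower on both treated arrays, at 8.46 and 8.48 against 8.22 and 8.23, a difference of -0.24 that did not pass (limma, unadjusted p = 0.0664, adjusted p = 1). The mean of both probe sets differed by -0.15.

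PSMA1, PSMA3, PSMA4 and PSMA5 differed by -0.05, -0.02, 0.03 and -0.02. The dim second probe set of PSMA5 differed by 0.16. The non-catalytic beta subunits other than PSMB3 were as close: PSMB1 at 0.02, PSMB2 at 0.02 and PSMB4 at -0.06, each less than its SE. Both treated arrays were above the untreated ones for PSMB1 and below them for PSMB4, by little in either case. For PSMB2 the brightest probe set was the only one of 4 above 0: the others differed by -0.12, -0.17 and -0.14, the mean of all by -0.10, and none passed (limma, adjusted p = 1). The other PSMB4 probe sets lay above 0, at 0.01 and 0.16. Within the PSMB family PSMB8 was highest and PSMB3 lowest.

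The non-ATPase subunits form the lid and base of the cap, hold its ubiquitin receptors and include the deubiquitinase PSMD14. Of 9 measured, 6 lay above 0 and the median was 0.03. PSMD3, a lid subunit, was highest at 0.23 ± 0.13 (SE), with 9.77 and 10.09 in untreated and 10.10 and 10.21 in treated cells. The groups did not overlap, yet the nearest arrays almost touched and the untreated pair lay 0.32 apart (limma, unadjusted p = 0.124, adjusted p = 1). PSMD11, also of the lid, followed at 0.11 ± 0.09, with 11.82 and 11.88 in untreated and 12.05 and 11.88 in treated cells, so that LPS replicate 1 alone stood higher. Its dim probe set differed by -0.04.

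PSMD2, a large scaffold of the base that receives ubiquitin-like domains, was at -0.08 ± 0.11 (SE), and the lid subunit PSMD12 also at -0.08, with an SE of 0.09. PSMD14 stood at 12.41, 12.29, 12.37 and 12.33 (untreated, then LPS), a difference of 0.00 ± 0.08. The ubiquitin receptor PSMD4 differed by 0.04 ± 0.10, and PSMD1, PSMD6 and PSMD8 by 0.03, -0.03 and 0.03. The other probe sets of PSMD4 differed by 0.08, -0.05 and 0.24, and that of PSMD1 by 0.21, none past the test. The dimmer probe set of PSMD12 differed by -0.19, with both treated arrays below both untreated arrays, and did not pass either.

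The alternative activators bind the ends of the core in place of the cap. PSME1, an interferon-inducible subunit of the PA28 activator, read 11.28 and 11.31 on the untreated arrays, then 11.12 for LPS replicate 1 and 11.48 for LPS replicate 2. The treated arrays lay on either side of the untreated ones, and the difference was 0.00 ± 0.13 (SE), a ratio of 1.00 with an interval of 0.82 to 1.23. PSME3, the nuclear form of that activator, was at 11.12, 11.35, 11.05 and 11.38 in the same order and was lowest of the family at -0.02 ± 0.14. PSME4, a single-chain activator, differed by 0.00 ± 0.09, and by -0.03 and -0.21 on its other probe sets. PSME1 and PSME3 differed more between the treated arrays, by 0.36 and 0.33, than between the groups.

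The assembly chaperones help to build the rings and are absent from the finished particle. All 7 measured lay above 0 on the brightest probe set, with a median of 0.04 and a range of 0.01 to 0.23. Over all genes 11171 of 19775 lay above 0, and the 7 values come from the same 4 arrays. With limma 0 of the 7 passed the test (adjusted p = 1 for each, and 0 at an unadjusted p under 0.05). PSMG4, which pairs with PSMG3 to form the alpha ring, was highest of all 42 genes at 0.23 ± 0.13 (SE). It read 9.82 and 9.74 on the untreated arrays, then 10.17 for LPS replicate 1 and 9.85 for LPS replicate 2. Only LPS replicate 1 stood well clear of the untreated arrays, and the other PSMG4 probe sets, all dimmer, differed by 0.31, 0.00, 0.21 and -0.16.

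PSMG3 was at 9.30 and 9.29 in untreated and 9.36 and 9.43 in treated cells, a difference of 0.10 ± 0.10 (SE). PSMG2 and PSMG1, the other chaperone pair of the alpha ring, differed by 0.04 and 0.03. PSMG1 was lowest of its family. The chaperones of the ATPase ring, PSMD5, PSMD9 and PSMD10, differed by 0.01, 0.04 and 0.03, and PSMD5 was dim at 4.91 to 4.99 on all arrays. Their dimmer probe sets differed by 0.01, -0.09 and 0.01 in the same order.

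Genes that work beside the proteasome were read from lists of its maturation and associated proteins, of ubiquitin and shuttle factors, and of factors that control its constitutive genes. With limma 0 genes on these lists, of 12, 13 and 11 genes, were called, where 0% of all genes were. An unadjusted p under 0.05 was found for 1 listed gene, lower with LPS, where 310 of all 19775 genes (1.57%) were lower. The maturation and associated proteins had a median of -0.02 over 12 genes, with the lowest at UCHL5, a deubiquitinase of the cap, at -0.15 ± 0.10 (SE) and the highest at PAAF1, an ATPase-binding factor, at 0.14 ± 0.10. POMP, the maturation factor of the core, differed by 0.01 ± 0.07 on its brightest probe set. Its dimmer probe set differed by -0.32, with both treated arrays below both untreated arrays, and did not pass the test.

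Among 13 ubiquitin and shuttle factors the median was 0.01. RAD23B, which carries tagged proteins to the proteasome, was lowest, with 12.09 and 11.91 in untreated and 11.78 and 11.73 in treated cells. Both treated arrays were below, by -0.25 ± 0.09 (SE) on average (limma, unadjusted p = 0.0295, adjusted p = 1), and its other probe sets differed by -0.11, -0.08 and 0.03. UFD1, a cofactor of the unfoldase VCP, was highest at 0.15 ± 0.08.

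Among 11 genes that control constitutive proteasome genes the median was -0.02. NFE2L1, which encodes NRF1, was at 11.65 and 11.72 in untreated and 11.82 and 11.78 in treated cells. Its 3 probe sets differed by 0.12, 0.17 and 0.11, each without overlap, and none passed (limma, adjusted p = 1). STAT3 was highest at 0.26 ± 0.12 (SE), with 10.35 and 10.48 in untreated and 10.82 and 10.54 in treated cells. Most of it lay in LPS replicate 1: the difference was 0.47 for the arrays numbered 1 and 0.06 for those numbered 2. Its other probe sets differed by 0.20, -0.07 and 0.10. NFE2L3, a relative of NFE2L1, was lowest at -0.18 ± 0.15.

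**Figure D5:**
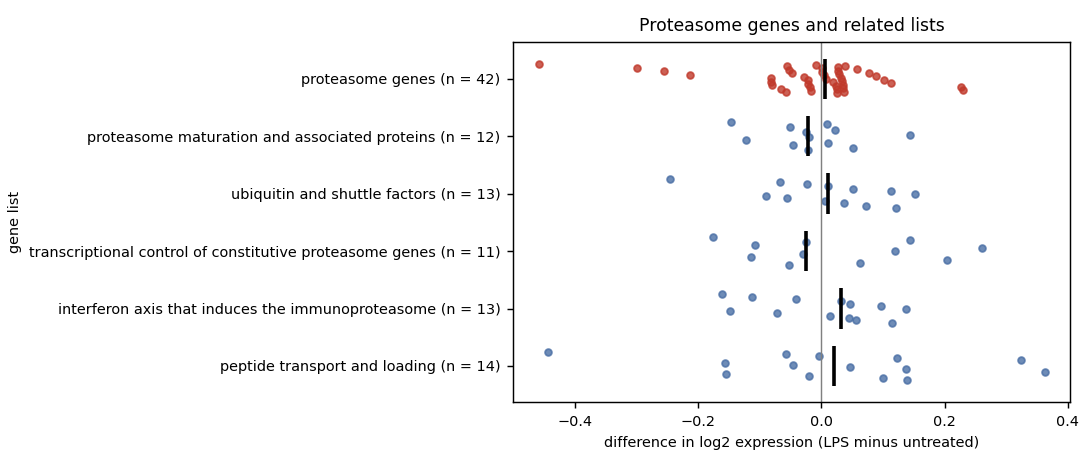
Difference in log2 expression (LPS minus untreated) of each proteasome gene (red) and of each gene on 5 related lists (blue), with the list median as a black bar. All medians lie between -0.02 and 0.03, and the points are spread up and down only to separate them.

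The arrays carried the markers of epithelial cells. All 7 measured epithelial markers, EPCAM and the keratin genes KRT8, KRT18 and KRT19 among them, were above the median over genes, and their mean ran from 12.32 to 12.46 over the arrays. Leukocytes, which carry immunoproteasome without stimulation, were looked for through 9 markers, 0 of which reached that median. Their mean was 5.91 and 5.95 on the untreated and 5.82 and 5.94 on the treated arrays, with PTPRC, the pan-leukocyte marker, at 5.16, 5.07, 4.86 and 5.00. Of 7 fibroblast or endothelial markers 1, COL1A1, reached it, and their mean ran from 5.96 to 6.08. Array medians over all probe sets ran from 6.31 to 6.36.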

How the data were processed

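Biotin-labelled cRNA from total RNA was hybridised to single-channel Affymetrix arrays, per the labels' protocols. The authors deposited log2 expression values for 54675 probe sets on 4 arrays. MAS5 and RMA are listed, per the submitters' processing notes; which of them made these values, and with what settings, is not given in the sources used here. Array medians lay close together, at 6.31 to 6.36, which alone does not show how the arrays were scaled before deposit. Background in such values compresses differences of dim probe sets, and no detection calls were used. The number of arrays limits the precision.

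Values were used without further normalization. Probe sets were named through the platform annotation, and no symbol needed an update through its gene number. The 1801 probe sets with several symbols, the 11721 with none and the 62 controls stayed out of the tests. LPS and untreated arrays were compared over all 19775 genes with limma 3.58.1 in R 4.3.3 (two-sided moderated test from lmFit and eBayes, with the prior variance following intensity and no covariate) and Benjamini-Hochberg adjustment and a threshold of 0.05. The script was tested on simulated data. A gene counts as not overlapping where both treated arrays lie on one side of both untreated arrays. Exact permutation tests used scipy 1.17.1, and figures matplotlib 3.10.9. The genes named by rule were PSMB5 to PSMB10, PSME1, every PSMF1 probe set, the highest and lowest member of each family and list, and members with an unadjusted p under 0.05. PSME2, also on that rule, had no probe set of its own. The other values shown are of members and of pathway genes chosen for their role. The proteasome genes, the related lists and these rules were chosen with earlier results of these data known. As alternatives, each array was left out in turn, arrays were quantile normalized, genes below median expression were dropped, a gene's probe sets were averaged or tested one by one, _x_at and _s_at probe sets were dropped, the prior variance was held constant, and the replicate number was fitted as a block.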

Additional observations from a re-analysis of the deposited data

How the results depend on the processing

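With limma, 0 proteasome genes and 0 genes of the related lists passed the adjusted threshold under any alternative that kept all 4 arrays. With 1 array left out, the called genes numbered 0 to 2 higher and 0 to 14 lower over the whole table, 0 to 1 lower and 0 higher among proteasome genes, and 0 on the related lists. Every call came from the fit without LPS replicate 2, and the proteasome gene was PSMF1. That fit, like the fit without LPS replicate 1, has a single treated array and takes its spread from the untreated pair. The count of members at an unadjusted p under 0.05 (limma) was 4 with the replicate block. The share over all genes was not counted for that fit, so nothing about the members is drawn from it. The median difference of the proteasome genes ran from -0.020 to 0.032 when 1 array was left out. The treated minus untreated value of the within-array difference ran from -0.02 to 0.04 for PSMB8 minus PSMB5, from -0.10 to 0.19 for PSMB9 minus PSMB6 and from -0.03 to 0.25 for PSMB10 minus PSMB7. The sign turned in at least 1 setting for 30 of the 42 members and in none of up to 11 settings for 12, PSMB8 and PSMC6 among them. PSMB8 minus PSMB5 had no value without _s_at probe sets, and no partner pair was given a value under the expression filter. With the replicate block the median was 0.006 and 0 genes passed. Same-numbered arrays deviated together across genes (r = 0.44), and the labels do not state that a number marks a shared experiment. The cause of these changes was not tested.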
